A study of Oryza sativa with 8 samples.

Results

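The 38 loci described here are rice genes of the MADS-box transcription factor family. They were looked up by locus identifier, and the list was drawn up with earlier results of these data known. Of the 38, 7 were listed with a differentially methylated region (DMR) in at least 1 of 4 comparisons, which is 18.4% (Wilson 95% interval 9.22 to 33.4), and 31 were listed in none. Among all genes, 19182 were listed in at least 1 comparison, which is 30.4% of an estimated 63123 numbered locus identifiers. The study named 3 of the loci, OsMADS37 (LOC_Os08g41960), OsMADS95 (LOC_Os01g23780) and OsMADS59 (LOC_Os06g23950), and chose them from its own gene lists, so that their listing was given by that choice. The study also measured its chosen genes by quantitative RT-PCR. It reported higher expression with lower methylation for some, OsMADS95 and OsMADS59 among them. No expression values were examined here. Without the 3 named loci, the tables listed 4 of 35 loci, or 11.4% (4.54 to 26.0). The other loci are given by identifier alone, because the sources used here paired no symbol with them.

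MADS-box proteins are transcription factors that bind DNA at CArG boxes, usually as dimers or larger complexes. In flowering plants they specify floral organs and meristems and set flowering time, and in Arabidopsis the member ANR1 acts in the response of lateral roots to nitrate. Cytosine methylation in plants occurs in CG, CHG and CHH contexts, and its relation to transcription differs between promoters and gene bodies.

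The study asked whether the nitrogen content of the parent seed altered DNA methylation in the next generation. Methylation was read by bisulfite sequencing of the whole genome, a method that changes cytosines without a methyl group and spares those with one. There were 8 libraries, and each condition had 1. The plants were WYG7, the wild type (Oryza sativa ssp. japonica cv. Wuyugeng7), or Ox1, a single line of that background that overexpresses OsNAR2.1, a partner protein of nitrate transporters. Each line was grown from parent seed of high (HN) or low (LN) nitrogen content, in a field given 300 kg N/ha (HN field) or in a field without nitrogen fertilizer (NN field). The labels call the tissue shoot and the study's methods call it leaf. LN was compared with HN seed within each line and field, so that no library entered more than 1 of the 4 comparisons. A hyper-DMR was read here as higher methylation in the LN library and a hypo-DMR as lower by the definition in the study's methods. Which library served as reference is not written in the lists themselves. The study's text gave mostly hyper-DMRs for Ox1 in the HN field and mostly hypo-DMRs in the NN field. The heading of that section gave the reverse. The study's counts of methylated cytosines were higher in the LN library in all comparisons but WYG7 in the NN field. Hyper-DMRs were the majority only there and in Ox1 in the HN field. All directions given here depend on this reading, which was not checked.

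Over the whole genome the HN field gave 28880 DMRs for WYG7 and 25546 for Ox1, while 26288 and 19765 were listed for the NN field. Each DMR was given as a position and a direction only. The methylation level, cytosine context, strand and read coverage behind a DMR were not available for analysis, so the depth at each DMR is unknown. The study gave reads and valid cytosines per library, and valid cytosines were fewest in the WYG7 libraries of the NN field. With no replicate, no difference between libraries could be tested, and every value is a description of these libraries. Intervals around shares cover counting error only.

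Over all 38 loci, including the 3 that the study chose, the counts were highest in the HN field. In WYG7 in the HN field 4 of 38 loci were listed, or 10.5% (4.17 to 24.1), beside 17.0% of numbered identifiers. The same number, 4 of 38, was listed in Ox1 in the HN field, beside 16.7% of numbered identifiers. The NN field gave 2 loci in WYG7, or 5.26% (1.46 to 17.3), beside 17.3%. It gave 1 locus in Ox1, or 2.63% (0.466 to 13.5), beside 12.4%. The share of MADS-box loci was thus the lower one in all 4 comparisons, but the counts were small. The intervals held the background in 3 comparisons, whereas it lay just above the upper bound for WYG7 in the NN field, both being 17.3%. These intervals cannot decide whether the shares differ. The background is an estimate, and the counts include 3 loci that the study chose from its gene lists. Without the 3 loci that the study chose, the counts were 3, 1, 1 and 1 of 35, so that the count for Ox1 in the HN field rested mainly on them.

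**Figure D1:**
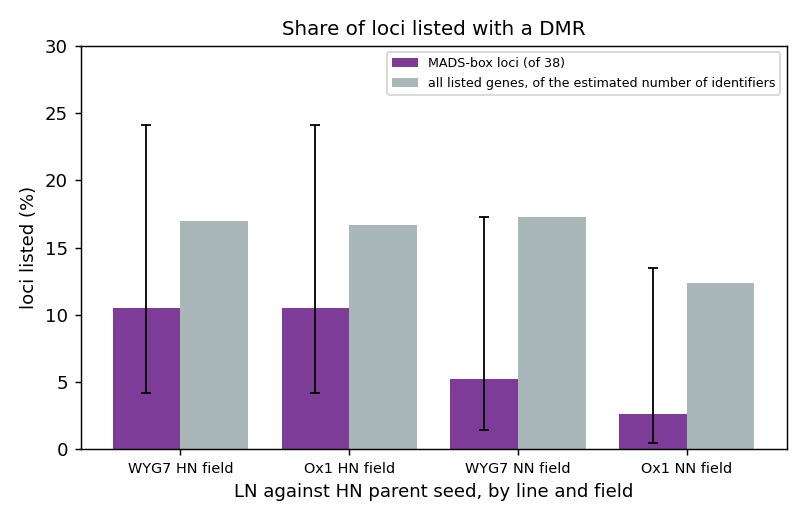
Share of loci listed with a DMR (%, vertical axis) in each comparison of LN with HN parent seed, for the 38 MADS-box loci (bars with Wilson 95% intervals) and for all listed genes as a share of the 63123 estimated identifiers. The MADS-box shares run from 2.63% to 10.5% and the background shares from 12.4% to 17.3%.

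The number of identifiers was an estimate from the highest locus number listed on each of 12 chromosomes, at 1 locus per 10 numbers. It counts a number that may be unused and any kind of numbered locus, and it misses loci numbered in between, since 94.5% of listed identifiers ended in 0. A background that does not need the estimate is the 19182 genes in any table. Of these, 56.0% were listed in WYG7 in the HN field, 54.9% in Ox1 in the HN field, 57.0% in WYG7 in the NN field and 40.9% in Ox1 in the NN field. Of the 7 MADS-box loci in any table, 57.1%, 57.1%, 28.6% and 14.3% were listed in the same order.

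Of the 7 loci, 5 were listed in 1 comparison and 2 in 3 comparisons, and none in 2 or in 4. Over all genes in a table, 40.1% were listed in 1 comparison, 26.4% in 2, 18.2% in 3 and 15.3% in 4. The 7 loci carried 11 DMRs of 110 to 565 bp with a median of 241 bp, 6 hyper and 5 hypo. Each listing rested on 1 DMR, as it did for 63.2%, 65.2%, 66.9% and 69.1% of all listed genes in the order given above. Listed genes as a whole held 1.76, 1.64, 1.60 and 1.63 DMRs on average in that order. The median interval of the 7 listed loci was 10213 bp, beside 3705.5 bp for all genes in a table, with 5 loci above that median and OsMADS95 and OsMADS59 below it. The interval is the one that the gene tables give, and whether it includes the 1 kb promoter was not stated.

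**Figure D2:**
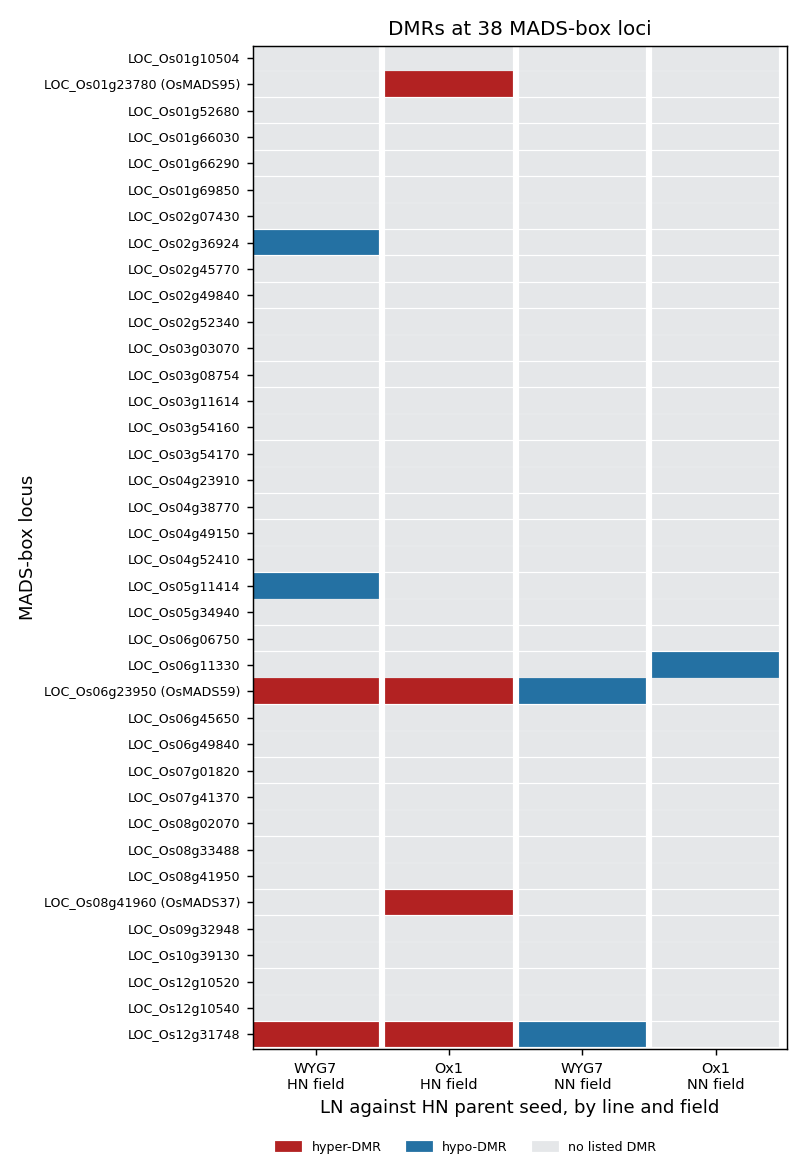
Direction of the DMR at each of the 38 MADS-box loci (rows) in the 4 comparisons of LN with HN parent seed (columns). Red cells are hyper-DMRs, blue cells hypo-DMRs and grey cells no listed DMR; 11 cells at 7 loci are filled, and LOC_Os06g23950 and LOC_Os12g31748 show the same row pattern.

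By direction, the 4 DMRs at MADS-box loci in WYG7 in the HN field were 2 hyper and 2 hypo, beside 45.0% hyper among all DMRs at genes. All 4 in Ox1 in the HN field were hyper (100%, interval 51.0 to 100), beside 76.8%. For WYG7 in the NN field 0 of 2 were hyper (0 to 65.8), beside 65.3%, and in Ox1 in the NN field 0 of 1 was hyper (0 to 79.3), beside 30.5%. The 8 DMRs of the HN field thus held all 6 hyper-DMRs at these loci, and the 3 of the NN field were all hypo. In each of the 4 comparisons the interval held the hyper share of all DMRs at genes, in WYG7 in the NN field by a narrow margin. Without the 3 loci that the study chose, 3, 1, 1 and 1 DMRs were left in the same order of comparisons. Of these, 33.3%, 100%, 0% and 0% were hyper. All hyper-DMRs then left overlapped at a single locus, LOC_Os12g31748.

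OsMADS59 carried a DMR at its lower end in 3 comparisons. The locus lies on chromosome 6 of IRGSP-1.0 at 13995414 to 13997319 (1906 bp). In WYG7 in the HN field a hyper-DMR ran from 13995145 to 13995469, with 56 of its 325 bp inside the interval. In Ox1 in the HN field a hyper-DMR ran from 13995301 to 13995558, with 145 of its 258 bp inside. In WYG7 in the NN field a hypo-DMR ran from 13995129 to 13995553, with 140 of its 425 bp inside. All 3 regions covered the same end of the locus, and the direction was the same in both lines of the HN field and opposite in the NN field. The WYG7 DMR of the HN field lay wholly within that of the NN field, sharing 325 bp, and the DMRs of the lines in the HN field shared 169 bp. The Ox1 DMR of the HN field shared 253 bp with the opposite DMR of WYG7 in the NN field. Ox1 in the NN field had no listed DMR there. With a required overlap of 100 bp, the WYG7 DMR of the HN field was no longer assigned to OsMADS59, which was then listed in 2 comparisons. The tables give no strand, so whether this end is the promoter side was not determined.

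LOC_Os12g31748 showed the same order of directions in the interior of a longer locus, on chromosome 12 at 19106070 to 19116282 (10213 bp). A hyper-DMR ran from 19112956 to 19113196 (241 bp) in WYG7 in the HN field. In Ox1 in the HN field a hyper-DMR from 19112747 to 19113311 (565 bp), the longest at any of the 7 loci, covered it whole. In WYG7 in the NN field a hypo-DMR ran from 19113242 to 19113437 (196 bp). The last of these overlapped the Ox1 region by 70 bp, or 35.7% of its own length, and lay 45 bp from that of WYG7 in the HN field. The regions were thus about 3 kb from the higher end of the locus, with midpoints at 3206, 3253 and 2943 bp from it.

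These 2 loci shared both their listing and their directions. Their listing, in every comparison but Ox1 in the NN field, was that of 1326 genes, or 38.0% of all genes in 3 tables, and was the commonest way to be listed in 3. The order hyper, hyper and hypo (WYG7 and Ox1 in the HN field, then WYG7 in the NN field) was seen in 74 of the 849 such genes that had 1 direction in each comparison, or 8.72%. The commonest order was hypo, hyper and hyper, in 336 genes or 39.6%. At the MADS-box loci 5 pairs of DMRs from different comparisons overlapped, all at these 2 loci. When a DMR had to overlap its locus by 100 bp, 3 pairs were left. The 2 pairs within the HN field had the same direction and the 3 pairs between WYG7 in the NN field and a comparison of the HN field had opposite ones. These 5 pairs came from only 6 DMRs, so they share DMRs and are not separate observations. Over all genes, overlapping DMRs had the same direction in 47.0% of pairs for the lines in the HN field, 48.7% for WYG7 between fields, and 57.9% for Ox1 in the HN field with WYG7 in the NN field.

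**Figure D3:**
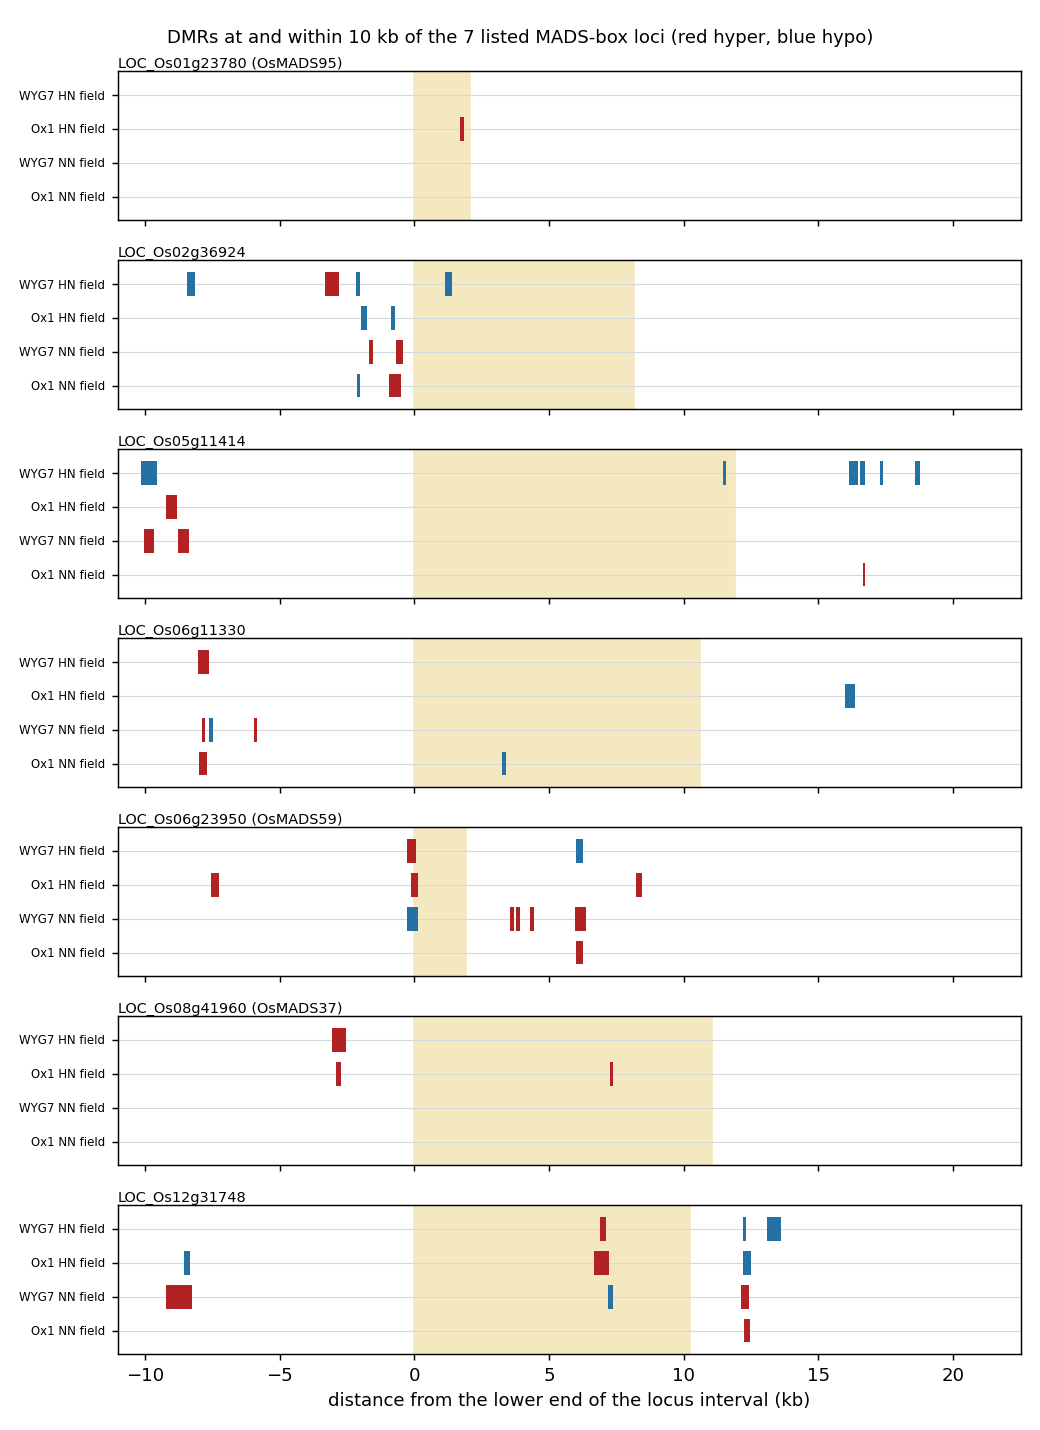
DMRs in the 4 comparisons (lanes) at the 7 listed MADS-box loci, against the distance in kb from the lower end of each locus interval (shaded), with every DMR within 10 kb. Red is hyper and blue hypo; the 3 DMRs at OsMADS59 stack on the lower end, and those of LOC_Os12g31748 stack about 3 kb before the higher end.

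The other 2 loci that the study named were listed in Ox1 in the HN field alone. OsMADS95 lies on chromosome 1 at 13372620 to 13374665 (2046 bp), and its hyper-DMR ran from 13374306 to 13374465 (160 bp), with the midpoint 280 bp from the higher end. It was the one listed locus with no other DMR within 10 kb in any comparison. OsMADS37 lies on chromosome 8 at 26517976 to 26529016 (11041 bp), and its hyper-DMR ran from 26525220 to 26525363 (144 bp), 3725 bp from the higher end. Before its lower end lay a hyper-DMR in each line of the HN field, at 26514933 to 26515432 for WYG7 and at 26515069 to 26515249 for Ox1. These regions overlapped and had the same direction as the DMR within OsMADS37, and they lay in the stretch that also holds the unlisted MADS-box locus LOC_Os08g41950.

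The 3 remaining loci each carried 1 hypo-DMR. LOC_Os02g36924, on chromosome 2 at 22293657 to 22301808 (8152 bp), held a hypo-DMR from 22294801 to 22295065 (265 bp) in WYG7 in the HN field, 1276 bp from the lower end. LOC_Os05g11414, on chromosome 5 at 6447183 to 6459100 (11918 bp), held one from 6458654 to 6458763 (110 bp) in WYG7 in the HN field, 392 bp from the higher end. LOC_Os06g11330, on chromosome 6 at 5953593 to 5964184 (10592 bp), held one from 5956834 to 5956980 (147 bp) in Ox1 in the NN field, 3314 bp from the lower end. This last DMR was the only one at a MADS-box locus in Ox1 in the NN field. The DMR of LOC_Os05g11414 lay in a 500 kb window with 131 DMRs in that comparison, 3.97 times the median window of 33, and the same window held 27, 54 and 28 DMRs in the other comparisons. The part of this dense window in the listing was not tested. Over all 7 loci, 5 of the 11 midpoints lay within 1 kb of an interval end, beside 50.8% to 53.4% of DMRs at all genes.

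DMRs near the listed loci were counted over 10 kb on each side, more sequence than any interval, the longest being 11918 bp. Counts inside and outside the intervals are therefore not alike. Within 10 kb of the 7 loci there were 42 further DMRs, 25 hyper and 17 hypo. By comparison, 3 of 13 were hyper in WYG7 in the HN field, 4 of 9 in Ox1 in the HN field, 13 of 14 in WYG7 in the NN field and 5 of 6 in Ox1 in the NN field. Among all DMRs of the same comparisons, 45.9%, 75.4%, 64.5% and 33.7% were hyper. The 3 DMRs inside the loci in the NN field were hypo. Neighbouring DMRs can belong to other genes, which was not examined.

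At LOC_Os12g31748, a stretch about 2 kb past the higher end held a DMR in all 4 comparisons. It was hypo in WYG7 in the HN field (19118262 to 19118377) and hypo in Ox1 in the HN field (19118254 to 19118562). It was hyper in WYG7 in the NN field (19118209 to 19118506) and in Ox1 in the NN field (19118301 to 19118521). In each of the 3 comparisons with a DMR inside the locus, the direction here was the opposite of that inside. At OsMADS59, a stretch about 4 kb past the higher end was hypo in WYG7 in the HN field (14001412 to 14001682) and hyper in WYG7 (14001393 to 14001783) and Ox1 (14001412 to 14001656) in the NN field. In WYG7, the directions at this stretch were the opposite of those at the lower end of the locus in both fields. In Ox1 in the HN field, the DMRs within 10 kb (13987879 to 13988141 and 14003632 to 14003874) were hyper. That was the same direction as the Ox1 DMR at OsMADS59 in that field. How often DMRs inside and outside a locus differ in direction over all genes was not examined.

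Before the lower end of LOC_Os02g36924, all 4 comparisons had DMRs, 9 in all at 427 to 8149 bp. The nearest were a hyper-DMR in WYG7 in the NN field (22292956 to 22293229), a hyper-DMR in Ox1 in the NN field (22292722 to 22293153) and a hypo-DMR in Ox1 in the HN field (22292772 to 22292942). The interval itself was listed in WYG7 in the HN field only. Past the higher end of LOC_Os05g11414, WYG7 in the HN field had 4 hypo-DMRs at 4226 to 6673 bp, in the dense window already described.

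The 31 loci in no table are known only by what lay around them. Their own positions were not given, so each was placed between the nearest listed loci on either side by identifier number. Out of position order were 104 of 19170 such neighbours (0.543%). The 31 loci fell in 29 spaces of 12.255 to 205.357 kb with a median of 68.64 kb. By construction no DMR in such a space lay in a listed gene, and an unlisted locus is more likely to fall in a long space than in a short one.

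In 5 of the 29 spaces (17.2%) no comparison had any DMR. These held LOC_Os02g07430, LOC_Os06g45650, LOC_Os06g49840, LOC_Os08g02070 and LOC_Os09g32948, in spaces of 17.36 to 99.163 kb. Among all 6901 spaces at least as long as the shortest of the 29, 26.9% had no DMR, but their median length was only 26.8 kb. Among spaces of 50 to 100 kb, 4 of the 16 that held MADS-box loci (25%) and 12.5% of all 1104 had no DMR, so the order of these shares turned with the lengths compared. In 8 spaces with 9 loci, every comparison had a DMR. The space of LOC_Os04g38770 held the most, with 4, 8, 5 and 5 DMRs in WYG7 and Ox1 in the HN field and WYG7 and Ox1 in the NN field, and was also among the longest at 203.596 kb. LOC_Os12g10520 and LOC_Os12g10540 shared a space with 12 DMRs. None of these DMRs can be assigned to a MADS-box locus.

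The 29 spaces held 28 DMRs, of which 13 were hyper, in WYG7 in the HN field, or 13.0 per Mb beside 27.8 over all the spaces. For Ox1 in the HN field they held 45 with 39 hyper, or 20.8 beside 24.1 per Mb. For WYG7 in the NN field they held 29 with 25 hyper, or 13.4 beside 25.8 per Mb. For Ox1 in the NN field they held 25 with 10 hyper, or 11.6 beside 19.3 per Mb. The MADS-box spaces were the longer ones, so that spaces of like length were compared as well. Within spaces of 50 to 100 kb the densities were 8.85 beside 22.1 per Mb in WYG7 and 19.5 beside 20.2 in Ox1 for the HN field. They were 11.5 beside 21.1 per Mb in WYG7 and 12.4 beside 16.2 in Ox1 for the NN field. Each MADS-box space was also picked because it held a locus without a listed DMR, which the other spaces need not hold. Comparing like lengths does not remove this difference, which also bears on the shares of spaces without a DMR. No spread between replicates was available to set beside these densities.

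**Figure D4:**
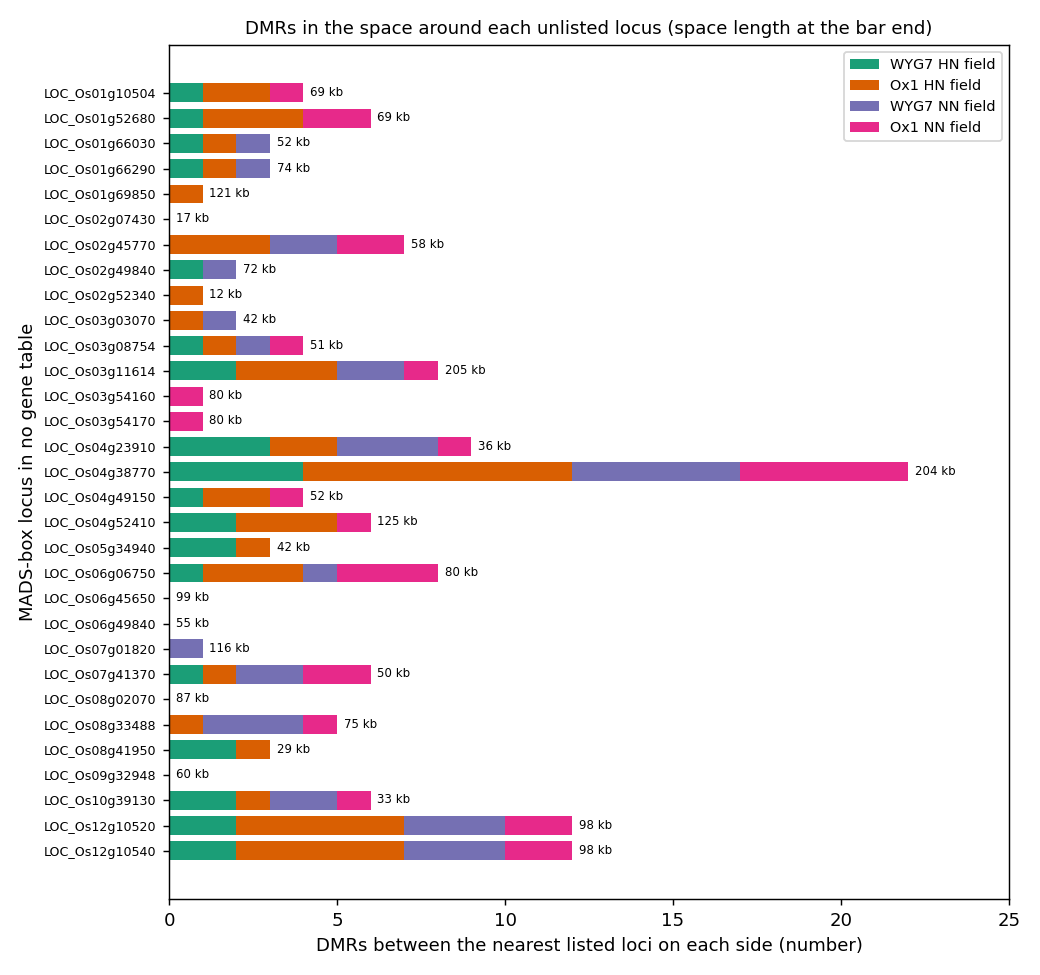
Number of DMRs (horizontal axis) between the nearest listed loci on each side of the 31 MADS-box loci in no gene table, stacked by comparison, with the length of the space in kb at the end of each bar. Bars run from 0 in 5 spaces to 22 around LOC_Os04g38770, and the loci LOC_Os12g10520 and LOC_Os12g10540, like LOC_Os03g54160 and LOC_Os03g54170, share a space and so repeat its bar.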

How the data were processed

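The authors aligned bisulfite reads to IRGSP-1.0 with Bismark (version 0.9.0 in the submitters' processing notes) and called DMRs between 2 libraries with SMART. They required at least 5 cytosines, each covered by more than 4 reads, a length of at least 100 bp, a methylation difference of at least 0.3 and p below 1e-10. They listed genes with a DMR in the gene body or in the 1 kb upstream promoter. The deposited lists hold positions (bp), a direction and, in the gene tables, locus identifiers.

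DMRs were assigned to a locus at an overlap of at least 52 bp, the smallest overlap of a listed gene (51 bp was the largest without a listing). The assignment, in Python 3.11.15 with pandas 2.3.3, was tested on simulated data and recovered 1200 of 1200 planted overlaps. Samples were grouped by their labels. Shares have Wilson 95% intervals. With 1 library per condition no test was run. Alternatives were overlaps of 1 and 100 bp, DMRs of at least 200 bp, merging of DMRs closer than 100 bp, other pair limits and the omission of dense windows or of the 3 loci that the study chose. These omissions, the comparison of spaces of 50 to 100 kb and the estimated number of identifiers were chosen after seeing the data. Loci in 3 comparisons, loci in no table, loci that the study named and those with overlapping DMRs of opposite directions were described in full, and the remaining 3 listed loci, given in full as well, were added after their values were seen. The members and these rules were chosen with earlier results of these data known. No genome of this build was used, and 0 of 38 identifiers matched the RefSeq gene table given, so no sequence, exon or strand is reported and classes of MADS-box genes were not compared.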

Additional observations from a re-analysis of the deposited data

Results flagged for a closer look

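At OsMADS59 (LOC_Os06g23950) the WYG7 DMRs of the HN and the NN field overlapped by 325 bp with opposite directions, hyper in the HN field and hypo in the NN field. At LOC_Os12g31748 the WYG7 DMRs of both fields lay 45 bp apart, again hyper in the HN field and hypo in the NN field. Both are given because the same contrast of LN with HN seed went in opposite directions in the 2 fields. Opposite directions were common, since over all genes only 48.7% of overlapping WYG7 DMRs from the 2 fields had the same direction. The first DMR had 56 bp inside OsMADS59, and with a required overlap of 100 bp it was not assigned to the locus, which ends that pair. Each rests on 1 library per condition and on the reading of hyper and hypo given above, and the difference was not tested.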

How the results depend on the processing

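Of 87 recomputed values, 70 kept within 1.5 times or within the interval of the reported value, 17 moved and 0 reversed. Many of the 70 could hardly move, so that count is no measure of stability. The hyper shares rested on 1 to 4 DMRs and had wide intervals, such as 15.0 to 85.0 for WYG7 in the HN field. An overlap of 1 bp could add no listing, because 0 loci had an overlap below the limit. With DMRs of 200 bp or more, both the loci listed and the DMRs at them went from 4 to 2 for Ox1 in the HN field, from 2 to 1 for WYG7 in the NN field and from 1 to 0 for Ox1 in the NN field. The loci listed in 1 comparison then went from 5 to 1, those in 2 comparisons from 0 to 1 and those in 3 comparisons from 2 to 1, because shorter DMRs were left out by construction. OsMADS59 stayed in 3 comparisons and LOC_Os12g31748 in 2. With a required overlap of 100 bp, OsMADS59 lost its DMR of WYG7 in the HN field, so that the loci in 2 comparisons went from 0 to 1 and those in 3 from 2 to 1. The overlapping pairs then went from 5 to 3, and those of the same direction from 2 to 1; these counts were added after seeing the data. Without the 3 loci that the study chose, an alternative chosen after seeing the data, the loci listed and their DMRs went from 4 to 1 for Ox1 in the HN field and from 2 to 1 for WYG7 in the NN field. The genes of a reference annotation as background were not run, because no annotation of this build was used. No paired analysis was possible because each condition had 1 library and no result came from a test. Depth behind each DMR is unknown, and a locus in no table may have lacked coverage.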
